A study of Mus musculus with 32 samples.

Results

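The response of the liver to corticosterone (cort) was compared between mice on a normal-protein diet (NPD) and mice on a high-protein diet (HPD). The quantity described is the diet by cort interaction, the log2 fold change of cort against vehicle (veh) on the HPD minus that on the NPD. A positive interaction means that a gene stood higher under cort, relative to veh, on the HPD than on the NPD, and a negative interaction means the reverse. The comparison used 15 of the 16 liver libraries, out of 32 libraries of liver and epididymal fat (eWAT) in all. The library left out was Veh HPD replicate 4. Of 12391 genes with enough counts for a test, 14 had a called interaction (adjusted p under 0.05), which is 0.113% of the genes tested.

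Corticosterone is the main glucocorticoid of rodents. It binds the glucocorticoid receptor, a transcription factor that raises or lowers the expression of many hepatocyte genes, among them those of gluconeogenesis, amino acid breakdown and lipid handling, and that lowers many genes of the immune response. The liver also adjusts to the protein and carbohydrate of the diet through insulin, glucagon and amino acid sensing, and some of these inputs reach the same genes as glucocorticoids. An interaction asks whether a gene answers cort differently once the diet has changed, which neither a cort effect nor a diet effect shows by itself.

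All libraries came from male C57BL/6 mice (the C57BL/6J substrain in the study's methods). Their labelled age of 10 weeks is, in those methods, the age when the 7 days of diet and treatment began. For 7 days the mice were fed the NPD, with 20% of calories from protein, or the HPD, with 60%. The protein was whey, and the added protein replaced carbohydrate at matched calories. By the methods all mice ate the NPD before this. The HPD mice thus changed diet as cort or veh began, and the NPD mice did not. The effects of this change and of the HPD itself cannot be told apart. Over the same 7 days the drinking water held cort in dilute ethanol, or the same dilute ethanol without cort as veh. The liver groups were Veh NPD (4 libraries), Veh HPD (3 libraries), Cort NPD (4 libraries) and Cort HPD (4 libraries). Cort was given by mouth to the whole animal, so the measurements do not separate effects on hepatocytes from effects that reached the liver through other tissues. The HPD differed from the NPD in carbohydrate as well as protein, and the effects of these cannot be told apart. No label ties a library to a cohort or a day, so the p-values measure the spread between these samples only.

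The 15 libraries held 8933307 to 17447524 counts each and counts for 15265 to 16436 genes. Cort HPD replicate 1 stood apart, with 42.2% of its counts in its 10 most counted genes and a TMM factor (a scaling factor of the library size) of 0.754. The left-out Veh HPD replicate 4 held a summed 771.3 CPM (counts scaled to a common library size) of cell cycle genes, against 85.54 to 126.6 in the other 15. Its summed hepatocyte markers were 39540 CPM, and those of the other 15 were 75830 to 268000 CPM. Hepatocyte markers such as Alb were high in each library. No pair of replicates held identical values or differed by as little as counting noise.

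The number of genes that changed with cort was of similar order on the 2 diets. The HPD comparison had 3 veh libraries and the NPD comparison 4, so the counts did not come from equal group sizes. Cort changed 1565 genes on the NPD (12.6% of those tested), of which 848 rose (6.84%) and 717 fell (5.79%). On the HPD it changed 1226 genes (9.89%), of which 589 rose (4.75%) and 637 fell (5.14%). The larger NPD count was not stable: it was the smaller of the pair without Veh NPD replicate 2 (1078 against 1164), without Cort NPD replicate 3 (1092 against 1169), with the left-out library returned (998 against 1114) and with library totals in place of TMM factors (1392 against 1547). Leaving out Veh NPD replicate 1, 3 or 4 also gave 3 veh libraries on each diet. The counts were then 1144 against 1142, 1460 against 1192 and 1294 against 1222. Of the 1565 and 1226 genes, 549 were called on both diets and 548 of them moved in the same direction, which is 35.1% of the NPD calls and 44.8% of the HPD calls. Calls on the NPD alone numbered 1016 and on the HPD alone 677, but a call on 1 diet only is no test of a difference, and the interaction was called for 6 and 7 of them respectively. In 2529 genes the average of the NPD and HPD cort effects passed the test. The typical size of their response did not separate the diets. Their absolute log2 fold change had a median of 0.71 on the NPD and 0.70 on the HPD. The ratio was 0.984 (jackknife SE 0.179 over libraries, and 1.14 with library totals). Choosing by the average favours genes that moved alike on both diets, and 2486 of the 2529 had the same sign. Genes with opposed effects are thus mostly not covered by this ratio. Diet alone changed 21 genes in veh-treated livers (0.169%) and 729 in cort-treated livers (5.88%), of which 382 were higher on the HPD (3.08%) and 347 lower (2.8%).

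**Figure D1:**
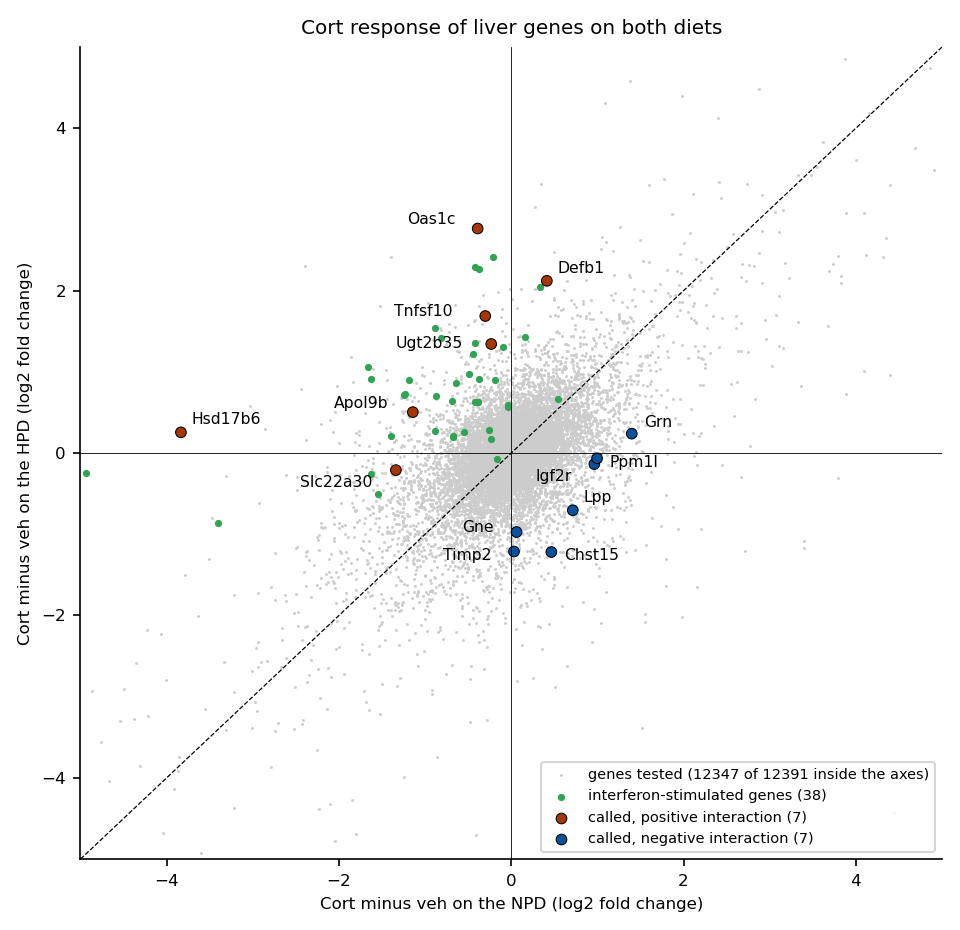
Each point is a gene tested in liver, with the log2 fold change of cort against veh under the NPD as x and under the HPD as y, and the diagonal marks an equal response on both diets. The 14 genes with a called interaction are labelled, with Hsd17b6 at -3.83 and 0.26, and the 38 interferon-stimulated genes, in green, all lie above the diagonal.

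The 14 called interactions split evenly, with 7 positive (0.0565%) and 7 negative (0.0565%). At an unadjusted p under 0.05 there were 1496 (12.1%), 682 positive and 814 negative, and the median over all genes tested was 0.00. By the fitted cort effects, 2 of the 14 had a response of the same direction that was weaker on the HPD (Grn and Slc22a30), 1 had one that was stronger (Defb1) and 11 had effects of opposite sign on the 2 diets. Of those 11, Lpp alone was called for cort on both diets, so it was the only gene with a tested rise on 1 diet and a tested fall on the other. At the unadjusted p the same classes held 220, 195 and 1081 genes, and 753 of the 1081 were called for cort on neither diet. The called genes are described by the diet on which cort changed them: 6 on the NPD alone, 7 on the HPD alone and Lpp on both. In the comparisons of diet, 13 of the 14 differed in cort-treated livers, against 5.88% of all genes tested. In veh-treated livers 0 of the 14 differed, against 0.169%. The interaction that chose these genes is the diet difference under cort minus that under veh, so these counts are no separate support. None of the 14 belonged to any of the 34 gene lists described further on.

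Hsd17b6, Slc22a30 and Apol9b fell with cort on the NPD, while on the HPD the cort effect did not pass the test. Hsd17b6 (ENSMUSG00000025396, chromosome 10, 127990936-128007611) encodes a hydroxysteroid dehydrogenase of androgen and retinoid metabolism, and its interaction was both the largest and the most certain of the 14. On the NPD it was at 183, 221, 116 and 149 CPM in the veh livers and at 9.16, 17.8, 9.77 and 10.3 CPM in the cort livers. On the HPD the veh livers held 62.9, 105 and 123 CPM and the cort livers 144, 104, 87.4 and 126 CPM. The Cort NPD livers were thus below every other liver by a wide margin, and on the HPD veh and cort overlapped. Cort gave a log2 fold change of -3.83 with the NPD (adjusted p = 3.74e-08) and of 0.26 with the HPD (adjusted p = 0.598), an interaction of 4.09 ± 0.38 (SE, adjusted p = 4.08e-05).

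Slc22a30 (ENSMUSG00000052562, chromosome 19, 8335371-8405111) belongs to a family of organic anion transporters. Its level on the NPD was 100, 84.4, 82.3 and 88.9 CPM in veh livers and 40.9, 31.3, 34.6 and 33.9 CPM in cort livers. On the HPD it was 74.4, 62.1 and 75.3 CPM with veh and 71.0, 50.7, 69.4 and 53.1 CPM with cort. Cort and veh livers did not overlap on the NPD and did on the HPD. Its log2 fold change went from -1.34 on the NPD (adjusted p = 1.85e-06) to -0.21 on the HPD (adjusted p = 0.436), and the interaction was 1.13 ± 0.22 (SE, adjusted p = 0.0441). The left-out Veh HPD library held 9 CPM, far below the 3 others of its group.

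Apol9b (ENSMUSG00000068246, chromosome 15, 77729039-77736382) is an interferon-induced member of the apolipoprotein L family with a closely similar neighbour, Apol9a, so reads of the pair could be hard to separate. Veh livers on the NPD held 46.3, 62.2, 60.3 and 67.2 CPM and cort livers 26.8, 41.0, 21.3 and 18.1 CPM. On the HPD the values were 120, 87.9 and 82.6 CPM with veh and 170, 138, 126 and 116 CPM with cort. Each HPD liver was above each NPD liver of either treatment, and cort and veh livers overlapped on the HPD. Apol9b fell with cort on the NPD (log2 fold change -1.14, adjusted p = 0.001), its log2 fold change on the HPD was 0.50 (adjusted p = 0.17), and the interaction was 1.65 ± 0.31 (SE, adjusted p = 0.0441).

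Grn, Igf2r and Ppm1l rose with cort on the NPD, but the HPD cort effects were near 0 and did not pass the test. Grn (ENSMUSG00000034708, chromosome 11, 102430315-102437048) encodes progranulin, a secreted and lysosomal glycoprotein. It was at 84.8, 96.1, 101 and 99.0 CPM in Veh NPD livers and at 198, 286, 245 and 277 CPM in Cort NPD livers. With the HPD it was at 155, 154 and 132 CPM under veh and at 137, 195, 168 and 193 CPM under cort. The Veh HPD livers already stood above the Veh NPD livers, and the Cort HPD livers stayed below the Cort NPD livers. On the NPD the log2 fold change of 1.40 (adjusted p = 1.54e-06) stood against 0.24 on the HPD (adjusted p = 0.392), which gave an interaction of -1.16 ± 0.22 (SE, adjusted p = 0.0441).

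Igf2r (ENSMUSG00000023830, chromosome 17, 12682406-12769664) encodes the cation-independent mannose 6-phosphate receptor, which sorts lysosomal enzymes and clears insulin-like growth factor 2. Its NPD levels were 13.1, 12, 15.7 and 14 CPM with veh and 20.8, 27.3, 29.2 and 29.6 CPM with cort. Its HPD levels were 23.4, 19.7 and 20.8 CPM with veh and 19.1, 19.1, 20.7 and 18.8 CPM with cort. As with Grn, all Veh HPD livers were above all Veh NPD livers, and on the HPD the treatments overlapped. The log2 fold changes were 0.96 (adjusted p = 0.000142) and -0.14 (adjusted p = 0.643), with an interaction of -1.10 ± 0.22 (SE, adjusted p = 0.0499).

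Ppm1l (ENSMUSG00000027784, chromosome 3, 69316861-69560802) encodes a membrane-bound protein phosphatase of the PP2C family. On the NPD 9.33, 9.98, 9.26 and 8.79 CPM under veh stood against 19.6, 18.3, 16.9 and 19.7 CPM under cort. On the HPD the levels were 11.7, 10.7 and 13.3 CPM under veh and 11, 12.9, 10.8 and 10.8 CPM under cort. The Cort NPD livers were the only high group. Ppm1l rose on the NPD (log2 fold change 1.0, adjusted p = 7.3e-05), had a log2 fold change of -0.06 on the HPD (adjusted p = 0.84) and had an interaction of -1.06 ± 0.21 (SE, adjusted p = 0.0499). It ranked last of the 14 by p, and its call was lost in each of the 15 fits that left out 1 library.

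Lpp (ENSMUSG00000033306, chromosome 16, 24393507-24992578), a LIM domain protein of focal adhesions, rose with cort on the NPD but fell with it on the HPD. NPD livers held 27.8, 21.6, 27.6 and 26.5 CPM with veh and 36.6, 33.6, 43.1 and 56.5 CPM with cort. HPD livers held 33.8, 22.7 and 35.8 CPM with veh and 16.6, 17.1, 24.1 and 17.9 CPM with cort. Cort NPD livers were above all Veh NPD livers, while on the HPD 1 cort liver, at 24.1 CPM, reached above the lowest veh liver. The log2 fold changes were 0.71 (adjusted p = 0.0119) and -0.70 (adjusted p = 0.0261), and the interaction was -1.42 ± 0.27 (SE, adjusted p = 0.0441).

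Ugt2b35, Defb1, Oas1c and Tnfsf10 rose with cort on the HPD, and their cort effects on the NPD did not pass the test. Ugt2b35 (ENSMUSG00000035811, chromosome 5, 87000860-87013275) encodes a UDP-glucuronosyltransferase, an enzyme family that conjugates steroids and drugs for excretion and whose genes are similar to each other. On the NPD it was at 65.3, 64.2, 62.9 and 72.0 CPM with veh and at 48.9, 48.3, 56.9 and 71.0 CPM with cort. On the HPD it was at 55.9, 49.6 and 80.3 CPM with veh and at 181, 158, 165 and 125 CPM with cort. All Cort HPD livers exceeded all other livers of the 15 libraries, but the left-out Veh HPD library, at 128 CPM, lay within their range. Its cort effect was -0.23 on the log2 scale for the NPD (adjusted p = 0.403) and 1.34 for the HPD (adjusted p = 6.5e-05), with an interaction of 1.58 ± 0.25 (SE, adjusted p = 0.012).

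Defb1 (ENSMUSG00000044748, chromosome 8, 21776599-21795185) encodes a beta-defensin, a small antimicrobial peptide of epithelia. Its NPD livers held 11.1, 5.73, 8.48 and 11.2 CPM with veh and 10.2, 12.5, 10.1 and 16.2 CPM with cort. Its HPD livers held 10.2, 12.9 and 12 CPM with veh and 61.5, 48.3, 50.9 and 41.9 CPM with cort. The Cort HPD livers formed a separate high group, and the left-out Veh HPD library, at 26.2 CPM, lay between them and the rest. Defb1 rose on the HPD (log2 fold change 2.12, adjusted p = 1.51e-06), had one of 0.41 under the NPD (adjusted p = 0.203) and an interaction of 1.71 ± 0.30 (SE, adjusted p = 0.0354).

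Oas1c (ENSMUSG00000001166, chromosome 5, 120800194-120812514) belongs to the interferon-induced oligoadenylate synthetases, a family of neighbouring and similar genes that sense viral double-stranded RNA. It was rare, at 0.553, 0.956, 0.693 and 0.761 CPM in Veh NPD livers and 0.539, 0.863, 0.303 and 0.547 CPM in Cort NPD livers. Veh HPD livers held 0.558, 0.346 and 0.473 CPM and Cort HPD livers 4.58, 2.5, 3.06 and 2.82 CPM. These stand for 4 to 10 counts in each library outside Cort HPD and for 38 to 54 counts in Cort HPD, so the fold changes are imprecise while the groups are separate. The log2 fold changes were -0.39 on the NPD (adjusted p = 0.61) and 2.76 on the HPD (adjusted p = 0.000254), and the interaction was 3.15 ± 0.61 (SE, adjusted p = 0.0441).

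Tnfsf10 (ENSMUSG00000039304, chromosome 3, 27317028-27342427) encodes TRAIL, a ligand of death receptors. NPD levels were 2.61, 2.55, 3.29 and 2.54 CPM with veh and 2.54, 1.55, 2.35 and 2.43 CPM with cort. HPD levels were 3.57, 1.9 and 1.96 CPM with veh and 11.4, 6.8, 7.12 and 7.2 CPM with cort. All Cort HPD livers were above all others, with Cort HPD replicate 1 the highest. Cort gave -0.30 on the log2 scale with the NPD (adjusted p = 0.532) and 1.69 with the HPD (adjusted p = 0.000562), and its interaction was 1.99 ± 0.40 (SE, adjusted p = 0.0499).

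Chst15, Timp2 and Gne fell with cort on the HPD, and their cort effects on the NPD did not pass the test. Chst15 (ENSMUSG00000030930, chromosome 7, 132235780-132317228) encodes a sulfotransferase of chondroitin sulfate. On the NPD it was at 4.19, 7.75, 7.27 and 7.52 CPM with veh and at 9.62, 8.46, 8.86 and 9.85 CPM with cort. On the HPD it was at 9.04, 8.38 and 9.26 CPM with veh and at 2.8, 4.13, 4.36 and 3.94 CPM with cort. Cort livers were above veh livers on the NPD and below them on the HPD, with no overlap on either diet, although the NPD difference did not pass the test (log2 fold change 0.47, adjusted p = 0.141). The log2 fold change for the HPD was -1.22 (adjusted p = 0.000987), and the interaction was -1.68 ± 0.30 (SE, adjusted p = 0.0354).

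Timp2 (ENSMUSG00000017466, chromosome 11, 118301069-118355740) encodes a tissue inhibitor of metalloproteinases. NPD livers were at 9.96, 11.7, 12 and 12.3 CPM with veh and at 13.5, 11.7, 10.8 and 10.9 CPM with cort. HPD livers were at 17.2, 12.2 and 17.8 CPM with veh and at 5.51, 7.44, 7.57 and 6.61 CPM with cort. The Cort HPD livers were the lowest of all, and the NPD groups overlapped. The log2 fold changes were 0.03 (adjusted p = 0.933) and -1.21 (adjusted p = 0.000155), with an interaction of -1.24 ± 0.25 (SE, adjusted p = 0.0499).

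Gne (ENSMUSG00000028479, chromosome 4, 44034075-44084177) encodes the enzyme that starts the synthesis of sialic acid. Its values on the NPD were 40.3, 43.6, 38.1 and 48.0 CPM with veh and 51.6, 44.0, 44.7 and 37.3 CPM with cort. Its values on the HPD were 50.8, 56.7 and 64.6 CPM with veh and 26.6, 27.2, 33.9 and 29.3 CPM with cort. Here too the Cort HPD livers were below all others of the 15 libraries. The left-out Veh HPD library, at 31.2 CPM, lay within their range. Gne had a log2 fold change of 0.06 with the NPD (adjusted p = 0.834), fell with the HPD (-0.97, adjusted p = 0.000248) and had an interaction of -1.03 ± 0.21 (SE, adjusted p = 0.0499).

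**Figure D2:**
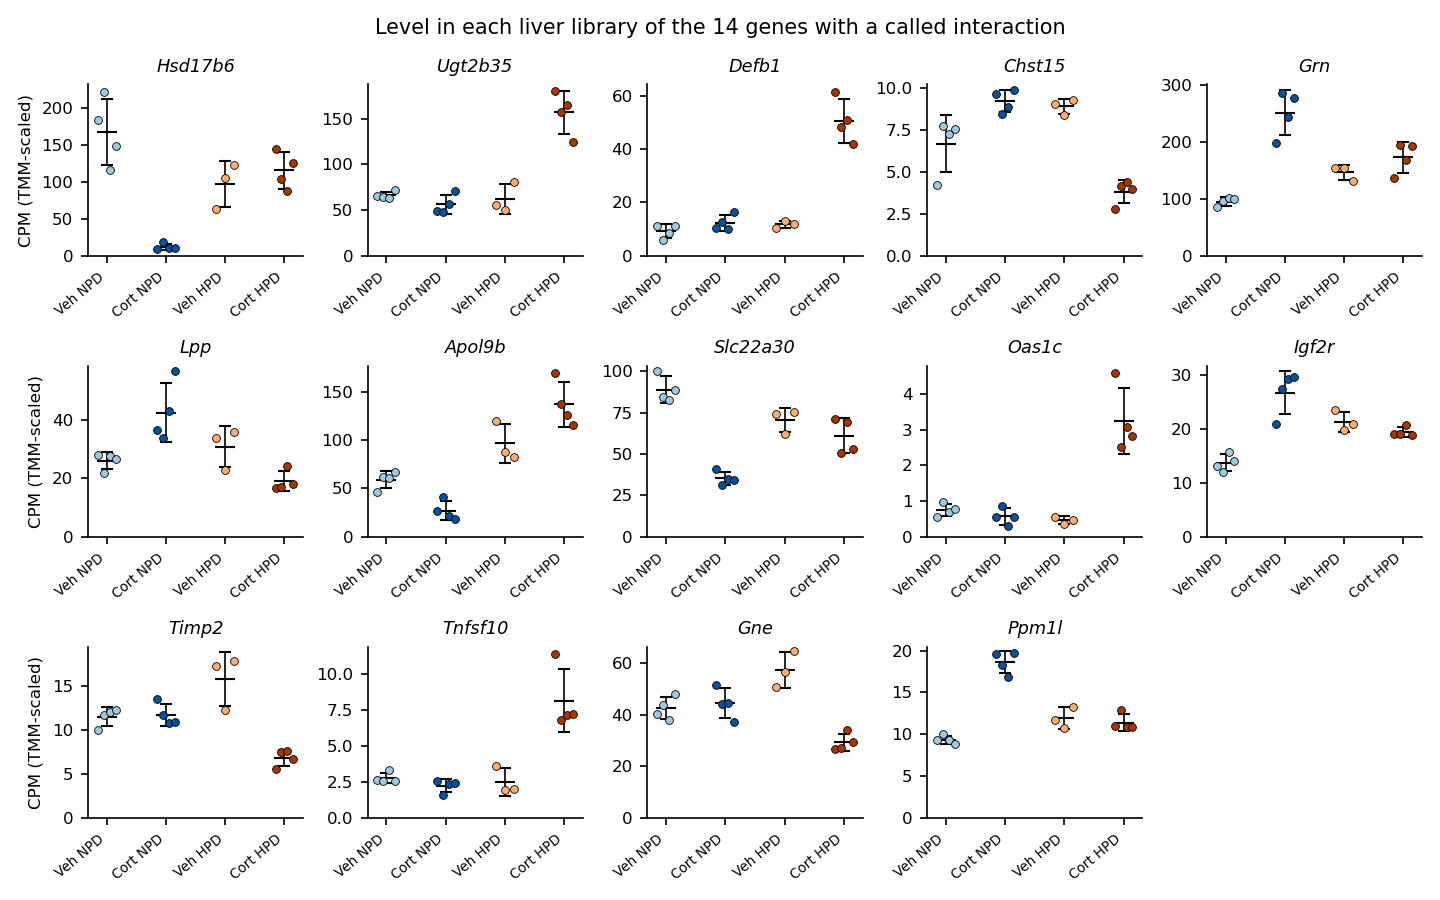
Each panel shows 1 of the 14 genes with a called interaction, with CPM on the y axis, the 4 liver groups on the x axis, a point for each library and the mean ± SD of the group. Among the 15 libraries, Hsd17b6 was low in Cort NPD livers only (9.16 to 17.8 CPM). In the same libraries Ugt2b35, Defb1, Oas1c and Tnfsf10 were high in Cort HPD livers only.

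RefSeq promoter sequences (GRCm38.p6, 250 bases before to 50 after the annotated start) were on hand for 12 of the 14 genes. Apol9b and Oas1c, both of families known to be induced by interferon, are shown because their promoters share an unbroken run of 16 bases, TTTCAGTTTCCATTTC, printed in capitals, and Tnfsf10, also known as an interferon-induced gene, is shown beside them because it did not hold that run. The run covers a pair of overlapping matches, on the reverse strand, to GAAANNGAAA, a core of the interferon-stimulated response element. In Apol9b (chr15:77728822-77729121, plus strand) the matches began 37 and 31 bases before the first annotated start. In Oas1c (chr5:120812465-120812764, minus strand) they began 114 and 108 bases before the start. The Tnfsf10 window (chr3:27316827-27317126, plus strand) held no match.
Apol9b: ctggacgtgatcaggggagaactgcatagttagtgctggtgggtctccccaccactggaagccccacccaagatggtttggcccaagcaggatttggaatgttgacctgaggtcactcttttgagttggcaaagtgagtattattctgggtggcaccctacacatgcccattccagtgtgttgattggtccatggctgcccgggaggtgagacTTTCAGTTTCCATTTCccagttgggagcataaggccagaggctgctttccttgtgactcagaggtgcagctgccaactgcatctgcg
Oas1c: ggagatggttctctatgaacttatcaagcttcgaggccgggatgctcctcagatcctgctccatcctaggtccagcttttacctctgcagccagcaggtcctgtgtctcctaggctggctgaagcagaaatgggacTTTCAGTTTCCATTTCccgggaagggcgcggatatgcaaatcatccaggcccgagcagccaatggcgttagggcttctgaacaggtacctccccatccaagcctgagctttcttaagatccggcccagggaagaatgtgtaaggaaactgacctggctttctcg
Tnfsf10: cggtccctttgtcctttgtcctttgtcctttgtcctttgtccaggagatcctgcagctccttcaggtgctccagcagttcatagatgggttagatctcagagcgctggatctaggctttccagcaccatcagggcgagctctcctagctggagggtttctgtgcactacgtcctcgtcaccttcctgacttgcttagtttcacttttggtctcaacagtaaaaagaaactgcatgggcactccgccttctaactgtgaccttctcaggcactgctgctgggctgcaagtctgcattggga

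Searched on both strands, GAAANNGAAA was in 3.44% of the 32851 promoters of the same length in the table. It was in 3 of the 8 promoters (37.5%) of the 6 positive genes with an entry, and these 3 belonged to 2 genes. It was in 0 of the 9 promoters of the 6 negative genes. This motif was chosen after the values of the genes had been seen, so these shares are no test of it. Among the other motifs, the palindrome of the glucocorticoid receptor (GNACANNNTGTNC, 0.475% of all promoters), the cAMP response element (TGACGTCA, 1.79%) and the ATF4 element (TGATGCAA, 0.895%) matched none of the 12 genes. The E-box CACGTG (7.15%) matched Igf2r alone. A match is a stretch of letters and was not tested as a binding site.

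How firmly the 14 calls held differed strongly between genes. Hsd17b6 and Ugt2b35 kept the call in all 15 fits that left out 1 library, with log2 interactions of 3.86 to 4.35 for Hsd17b6 and 1.46 to 1.81 for Ugt2b35. Defb1 kept it in 10 and lost it without Veh NPD replicates 1 or 4, Veh HPD replicate 3, Cort NPD replicate 3 or Cort HPD replicate 3, and its log2 interaction ranged from 1.60 to 1.88. Chst15 and Lpp kept it in 6, Slc22a30 in 5 and Grn in 4. The remaining 7, Apol9b, Oas1c, Igf2r, Timp2, Tnfsf10, Gne and Ppm1l, kept it in 2 or fewer. The sign of the interaction was the same in all of these fits for each of the 14. These genes were chosen by the interaction in the same libraries, so an unchanged sign is no separate support. With the left-out Veh HPD library returned, only Hsd17b6 was called (log2 interaction 3.77, adjusted p = 0.00104), and the adjusted p of the other 13 rose to between 0.0655 and 0.334. That library lay outside the range of the 3 other Veh HPD libraries for 9 of the 14 genes, for example at 197 CPM for Hsd17b6, 128 CPM for Ugt2b35, 265 CPM for Grn and 4.45 CPM for Ppm1l.

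**Figure D3:**
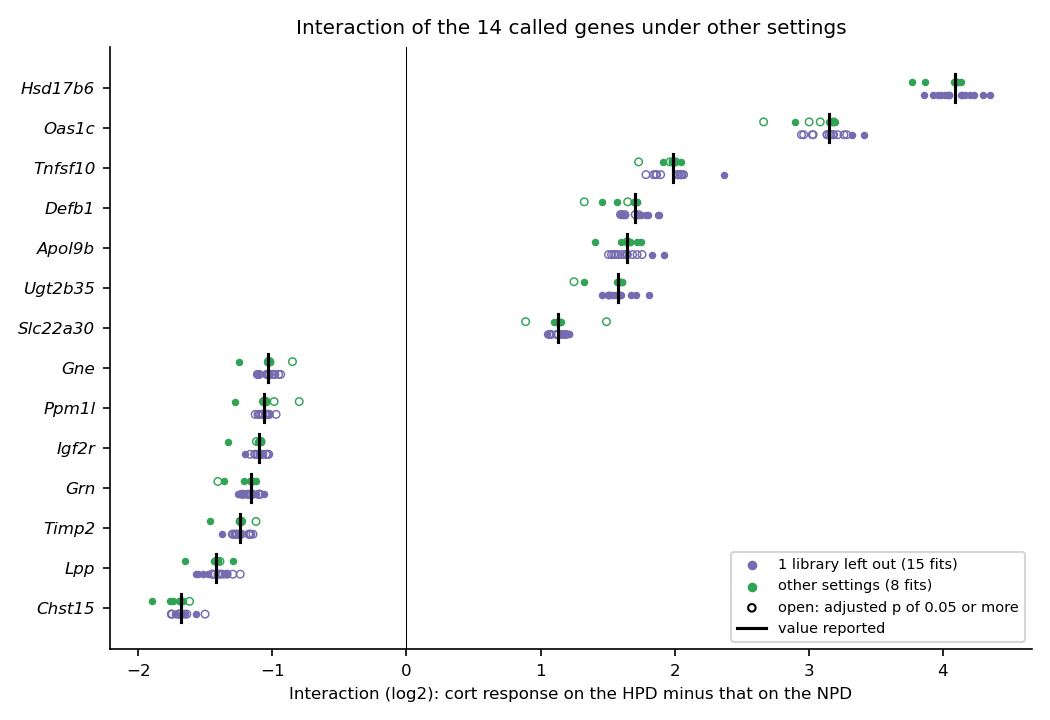
The log2 interaction of the 14 genes is on the x axis, with a point for each of the 15 fits without 1 library, for each of 8 other settings and for the reported value. No gene crossed 0, and Hsd17b6 lay between 3.77 and 4.35 throughout. The genes were chosen by this interaction in the same libraries, so the unchanged sign is no separate support.

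The genes next in order show how narrow the threshold was. Just inside it were Tnfsf10, Gne and Ppm1l, each with an adjusted p of 0.0499. Just outside were Lrp1, a lipoprotein receptor (log2 interaction -1.04, adjusted p = 0.0534), and Aqp1, a water channel (-1.13, adjusted p = 0.0548). Next was Pcx, pyruvate carboxylase, which feeds pyruvate into gluconeogenesis (-1.17, adjusted p = 0.0611). Pcx was at 64.9, 60.3, 82.2 and 76.1 CPM in Veh NPD livers and 152, 161, 195 and 169 CPM in Cort NPD livers. It was at 73.4, 61.0 and 78.9 CPM in Veh HPD livers and 50.6, 82.7, 77.4 and 91.0 CPM in Cort HPD livers. The Cort NPD livers were above all others, and Pcx rose with cort on the NPD (log2 fold change 1.25, adjusted p = 2.31e-05) and not detectably on the HPD (0.09, adjusted p = 0.816).

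No member of any of the 34 pathway lists had a called interaction, so the lists are described by the sign and median of their members, beside 49.8% positive and a median of 0.00 over all genes tested. Their counts of cort calls stand beside 6.84% raised and 5.79% lowered of all genes tested on the NPD, and 4.75% raised and 5.14% lowered on the HPD. The list farthest from 0 was that of interferon-stimulated genes, which encode antiviral effectors and their regulators. All 38 members tested had a positive interaction, and the median was 1.44. Of the 38, 28 had an unadjusted p under 0.05, against 12.1% of all genes tested in either direction. Cort lowered 5 members and raised 0 on the NPD (list median -0.52) and raised 6 and lowered 0 on the HPD (list median 0.71). In cort-treated livers 34 of the 38 were higher on the HPD than on the NPD, against 3.08% of all genes tested. The list's median difference there was 2.28. In veh-treated livers 0 were called, against 0.169% of all genes tested in either direction, and the median difference was 0.92. In bulk tissue, a change in the number of cells of a type and a change of RNA per cell cannot be told apart.

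The mean level of the interferon list was computed in each library as log2(CPM + 1) relative to the mean of the Veh NPD livers. It was -0.091, 0.275, -0.081 and -0.103 in Veh NPD and -0.778, -0.245, -0.491 and -0.482 in Cort NPD. In Veh HPD it was 1.442, 0.262 and 0.128, and in Cort HPD 2.039, 1.37, 1.299 and 1.229. Cort NPD livers were below all others and Cort HPD livers above all NPD livers, but Veh HPD replicate 1 reached the range of the Cort HPD livers, as did the left-out Veh HPD library at 1.292. Without Veh HPD replicate 1 the list's median interaction was 2.01 and 11 members were called. Without any other single library the count called was 0, and across all 15 such fits the median ran from 1.23 to 2.01.

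Iigp1, an interferon-induced GTPase, and Ifi27, an interferon-induced protein of mitochondria, had the smallest p of the list. Iigp1 was at 657, 839, 676 and 713 CPM in Veh NPD, 382, 429, 403 and 345 CPM in Cort NPD, 917, 576 and 746 CPM in Veh HPD and 1340, 796, 807 and 672 CPM in Cort HPD. It fell on the NPD (-0.89, adjusted p = 0.00343), while its interaction of 1.16 did not pass the test (adjusted p = 0.115). Ifi27 was at 155, 159, 141 and 181 CPM in Veh NPD, 79.1, 113, 102 and 100 CPM in Cort NPD, 238, 179 and 145 CPM in Veh HPD and 481, 211, 240 and 237 CPM in Cort HPD. It also fell on the NPD (-0.69, adjusted p = 0.0407), and its interaction was 1.33 (adjusted p = 0.12). For both genes the Cort NPD livers were the lowest of all. The other members that fell on the NPD were Cxcl9 (-3.40, adjusted p = 9.7e-05), Gbp2 (-1.63, adjusted p = 0.00518) and Bst2 (-0.54, adjusted p = 0.0388), and those that rose on the HPD were Ifit3, Ifit3b, Oasl1, Usp18, Irgm1 and Dhx58, with log2 fold changes of 0.90 for Dhx58 to 2.42 for Ifit3b. These genes were named after their values had been seen.

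**Figure D4:**
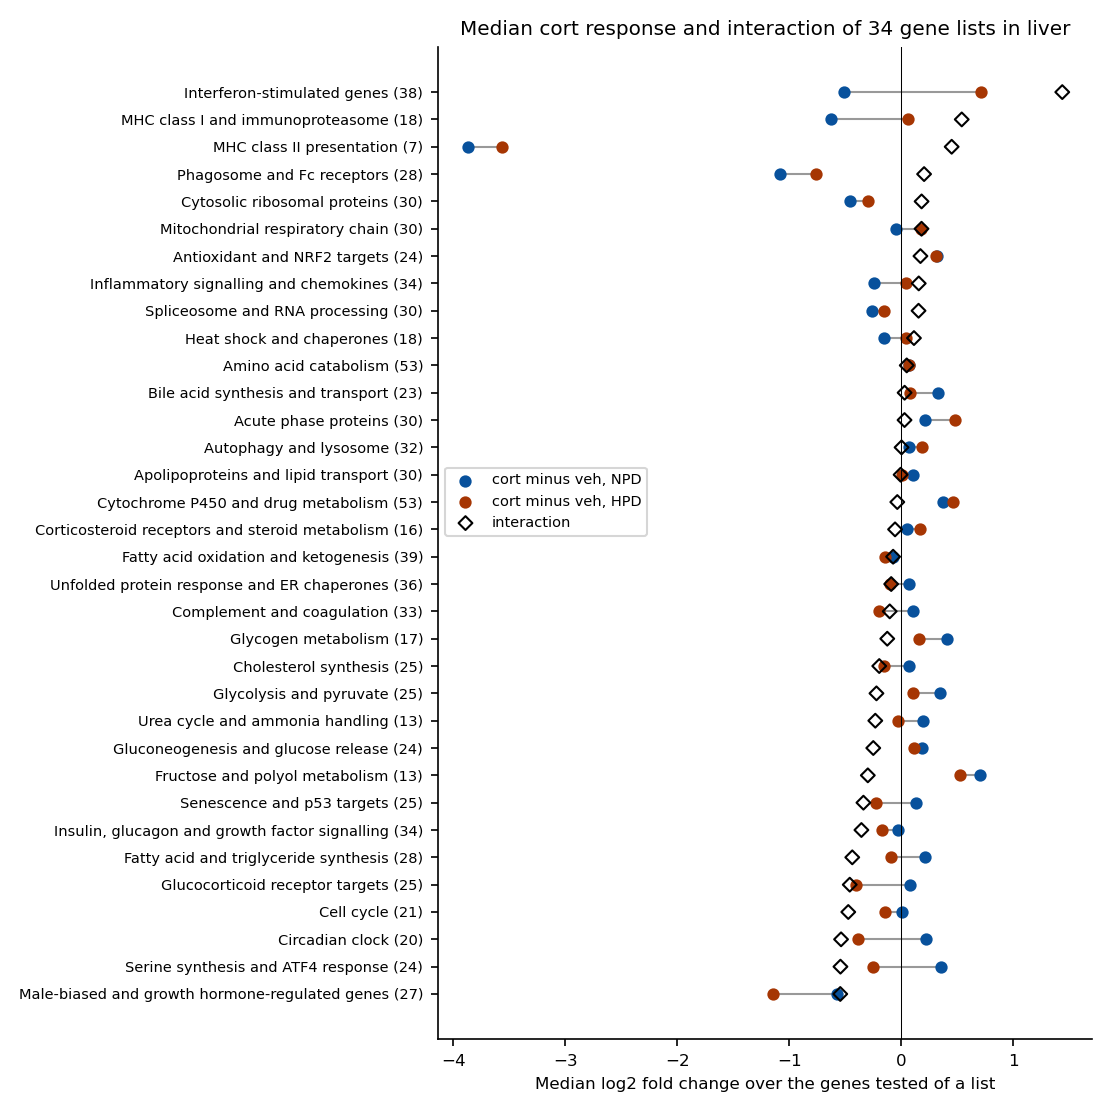
For each of the 34 lists, the x axis gives the median log2 fold change of cort under each diet and the median interaction. Interferon-stimulated genes had the highest median interaction, 1.44, and male-biased and growth hormone-regulated genes the lowest, -0.55.

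Genes of MHC class I and the immunoproteasome, which present peptides of the cell's own proteins, had a median interaction of 0.54 (0.30 with library totals). Of 18 tested, 16 were positive and 4 had an unadjusted p under 0.05, against 12.1% of all genes tested in either direction. Cort lowered 5 of them on the NPD (median -0.63), while on the HPD 1 rose and 1 fell (median 0.06). Psmb9, an immunoproteasome subunit, fell on the NPD (-0.75, adjusted p = 0.0173) and had a log2 fold change of 0.23 on the HPD (adjusted p = 0.558), with an interaction of 0.97 (adjusted p = 0.195). The 7 tested genes of MHC class II, the display of antigen-presenting cells, had a median interaction of 0.45, with 7 lowered by cort on the NPD (median -3.87) and 6 on the HPD (median -3.56). That median interaction was 0.12 without Veh NPD replicate 2, 0.27 without Cort HPD replicate 4, 0.68 without Cort HPD replicate 2 and 0.16 with all 16 libraries. H2-Aa, an MHC class II chain, was at 60.2, 101, 60.3 and 78.4 CPM in Veh NPD and 3.08, 1.12, 2.35 and 4.26 CPM in Cort NPD. HPD livers were at 40.1, 36.8 and 55.8 CPM with veh and 5.93, 2.79, 3.29 and 3.12 CPM with cort, so the fall was large on both diets, and its interaction of 1.20 did not pass the test (adjusted p = 0.287).

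The glucocorticoid receptor itself, Nr3c1, had an interaction that did not pass the test (0.22, adjusted p = 0.738). Of 25 of its well-known targets, 19 had a negative interaction and the median was -0.46. Cort raised 5 of the 25 and lowered 1 on the NPD, where it raised 6.84% and lowered 5.79% of all genes tested, and raised 3 and lowered 5 on the HPD, where it raised 4.75% and lowered 5.14%. Fkbp5, a co-chaperone of the receptor that cort induces, was at 22.6, 56.5, 22.1 and 60.5 CPM in Veh NPD and 234, 171, 211 and 139 CPM in Cort NPD. HPD livers were at 15.6, 77.7 and 34.9 CPM with veh and 77.6, 108, 79.9 and 112 CPM with cort. Fkbp5 rose on the NPD (2.23, adjusted p = 0.00939), its log2 fold change on the HPD was 1.15 (adjusted p = 0.188), and the interaction of -1.07 did not pass the test (adjusted p = 0.549). The lowest Cort NPD liver, at 139 CPM, was above the highest Cort HPD liver, at 112 CPM. The sign of this list depended on 1 library, since without Veh HPD replicate 2 the median was 0.10, and it was -0.28 without Veh NPD replicate 3.

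Clock genes, whose expression cycles over the day, had 15 of 20 negative interactions and a median of -0.54 (-0.34 with all 16 libraries), with 5 raised by cort on the NPD and 1 raised and 1 lowered on the HPD. Per1, a clock gene and a glucocorticoid target, was at 2.53, 10.8, 5.45 and 8.12 CPM in Veh NPD, 8.39, 8.63, 6.28 and 5.23 CPM in Cort NPD, 9.93, 12.5 and 10.8 CPM in Veh HPD and 2.54, 4.36, 3.14 and 4.6 CPM in Cort HPD. Its Cort HPD livers were below its Veh HPD livers with no overlap, and it fell on the HPD (-1.58, adjusted p = 0.00416), with an interaction of -1.68 (adjusted p = 0.156). Times of day of the samples are not in the labels.

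Genes of serine synthesis and the ATF4 response, which answer amino acid shortage and stress, had 21 of 24 negative interactions and a median of -0.54, which was -0.83 without Veh HPD replicate 3 and -1.21 with all 16 libraries. Cort raised 2 and lowered 3 on the NPD and raised 0 and lowered 8 on the HPD. Ddit3, a stress transcription factor, was at 8.54, 8.07, 7.62 and 7.1 CPM in Veh NPD and 5.54, 9.06, 5.07 and 9.48 CPM in Cort NPD. It was at 16.9, 52.4 and 14 CPM in Veh HPD and 7.21, 7.09, 6.73 and 7.05 CPM in Cort HPD. Its high group was Veh HPD, led by Veh HPD replicate 2, and not a cort group. Ddit3 fell on the HPD (-1.97, adjusted p = 0.00172) and had an interaction of -1.87 (adjusted p = 0.156). Atf3, another factor of this response, was likewise highest in Veh HPD, with 4.85, 15.7 and 2.09 CPM in Veh HPD and an interaction of -3.26 (adjusted p = 0.147).

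Gluconeogenesis and glucose release had a median interaction of -0.25, with 15 of 24 negative, and cort raised 6 and lowered 1 on the NPD (6.84% and 5.79% of all genes tested) and raised 5 and lowered 1 on the HPD (4.75% and 5.14%). The median was nearer to 0 without Veh HPD replicate 2 (-0.11), Veh NPD replicate 3 (-0.12), Cort HPD replicate 1 (-0.14), Cort NPD replicate 4 (-0.15) or Cort HPD replicate 3 (-0.16). Pcx, described above, was the member nearest to a call. Pck1, the rate-limiting enzyme of gluconeogenesis, gave an interaction of -0.22 (adjusted p = 0.806) and log2 fold changes of 0.10 and -0.12. G6pc, which releases free glucose, was at 332, 491, 398 and 313 CPM in Veh NPD and 469, 328, 368 and 414 CPM in Cort NPD. HPD livers were at 240, 208 and 137 CPM with veh and 253, 591, 375 and 536 CPM with cort. G6pc rose on the HPD (1.17, adjusted p = 0.00594) from a low Veh HPD level, and its interaction was 1.13 (adjusted p = 0.196). Gcgr, the glucagon receptor, had an interaction of -0.07 (adjusted p = 0.912), and Fgf21, a liver hormone of nutrient stress, one of -1.70 (adjusted p = 0.388).

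Txnip, a protein that restrains glucose uptake and whose gene answers glucose, was low in Cort HPD livers only, at 36.5, 36.3, 38.3 and 34.9 CPM against 65.8 CPM or more in every other liver. It had a log2 fold change of -1.33 under the HPD (adjusted p = 0.000154) and one of -0.15 under the NPD (adjusted p = 0.653), with an interaction of -1.18 (adjusted p = 0.0936). The glycolysis list had a median of -0.22, the fructose and polyol list -0.30 and the glycogen list -0.13. Fatty acid and triglyceride synthesis had 21 of 28 negative interactions and a median of -0.44, and cholesterol synthesis had 18 of 25 and a median of -0.20. Insulin, glucagon and growth factor signalling had a median of -0.36, with 21 of 34 negative. The median of the fatty acid list was -0.15 without Cort NPD replicate 4 and -0.29 without Veh NPD replicate 2, and that of the glycolysis list was -0.36 without Veh NPD replicate 4. The median of the glycogen list turned positive without Veh HPD replicate 3 (0.01) and that of cholesterol synthesis without Veh HPD replicate 1 (0.10).

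Amino acid catabolism, the pathway that disposes of dietary protein, had a median interaction of 0.05, with 31 of 53 positive, near that of all genes tested, and negative with library totals in place of TMM factors (-0.14). Agxt, the peroxisomal aminotransferase that detoxifies glyoxylate, was at 127, 145, 126 and 119 CPM in Veh NPD and 40.5, 31, 25.5 and 22.9 CPM in Cort NPD. It was at 147, 153 and 173 CPM in Veh HPD and 56.2, 55.2, 80 and 64.2 CPM in Cort HPD. Agxt fell on both diets, with log2 fold changes of -2.11 (NPD, adjusted p = 2.52e-08) and -1.30 (HPD, adjusted p = 5.68e-05), and the difference of 0.81 did not pass the test (adjusted p = 0.195). The urea cycle list had a median of -0.23, which was -0.09 without Cort HPD replicate 1 and -0.08 with all 16 libraries. Tat, a tyrosine aminotransferase and glucocorticoid target, fell on the NPD (-1.25, adjusted p = 0.0459) and had an interaction of 0.79 (adjusted p = 0.595).

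Male-biased and growth hormone-regulated genes, which include the major urinary proteins, had 20 of 27 negative interactions and a median of -0.55, which was -0.23 without Veh HPD replicate 3, -0.35 without Cort NPD replicate 1 and -0.27 with the replicate number as a block. Cort lowered 10 of them on the NPD (list median -0.57) and 11 on the HPD (list median -1.15). Mup3, a major urinary protein of a multigene family, fell with log2 fold changes of -0.94 (NPD, adjusted p = 0.0166) and -1.70 (HPD, adjusted p = 0.000365), and its interaction was -0.75 (adjusted p = 0.426). Srd5a1, a steroid 5-alpha-reductase of the steroid metabolism list (median -0.06), gave -0.62 (adjusted p = 0.0228) and -1.29 (adjusted p = 0.000133) in the same order, with an interaction of -0.67 (adjusted p = 0.305). Of secreted liver proteins, the heme carrier Hpx fell on the NPD (-0.66, adjusted p = 0.02) and had a log2 fold change of 0.50 on the HPD (adjusted p = 0.121), with an interaction of 1.16 (adjusted p = 0.1). The complement component C3 and the coagulation factor F5 rose on the NPD (0.73, adjusted p = 0.00449, and 0.53, adjusted p = 0.0277) and had log2 fold changes of -0.20 (adjusted p = 0.516) and -0.48 (adjusted p = 0.0761) on the HPD, with interactions of -0.93 (adjusted p = 0.128) and -1.0 (adjusted p = 0.09).

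The remaining lists had median interactions of -0.47 for the cell cycle, -0.34 for senescence and p53 targets, -0.10 for complement and coagulation, -0.09 for the unfolded protein response, -0.07 for fatty acid oxidation and -0.01 for apolipoproteins. The medians were 0.00 for autophagy and lysosome, 0.03 for acute phase proteins, 0.03 for bile acids, 0.11 for heat shock, 0.15 for the spliceosome, 0.16 for inflammatory signalling and 0.20 for phagosome and Fc receptors. Except for senescence and p53 targets, each of these medians changed sign under 1 or more of the settings tried, and that of the cell cycle did so without Veh HPD replicate 1 (0.04).

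**Figure D5:**
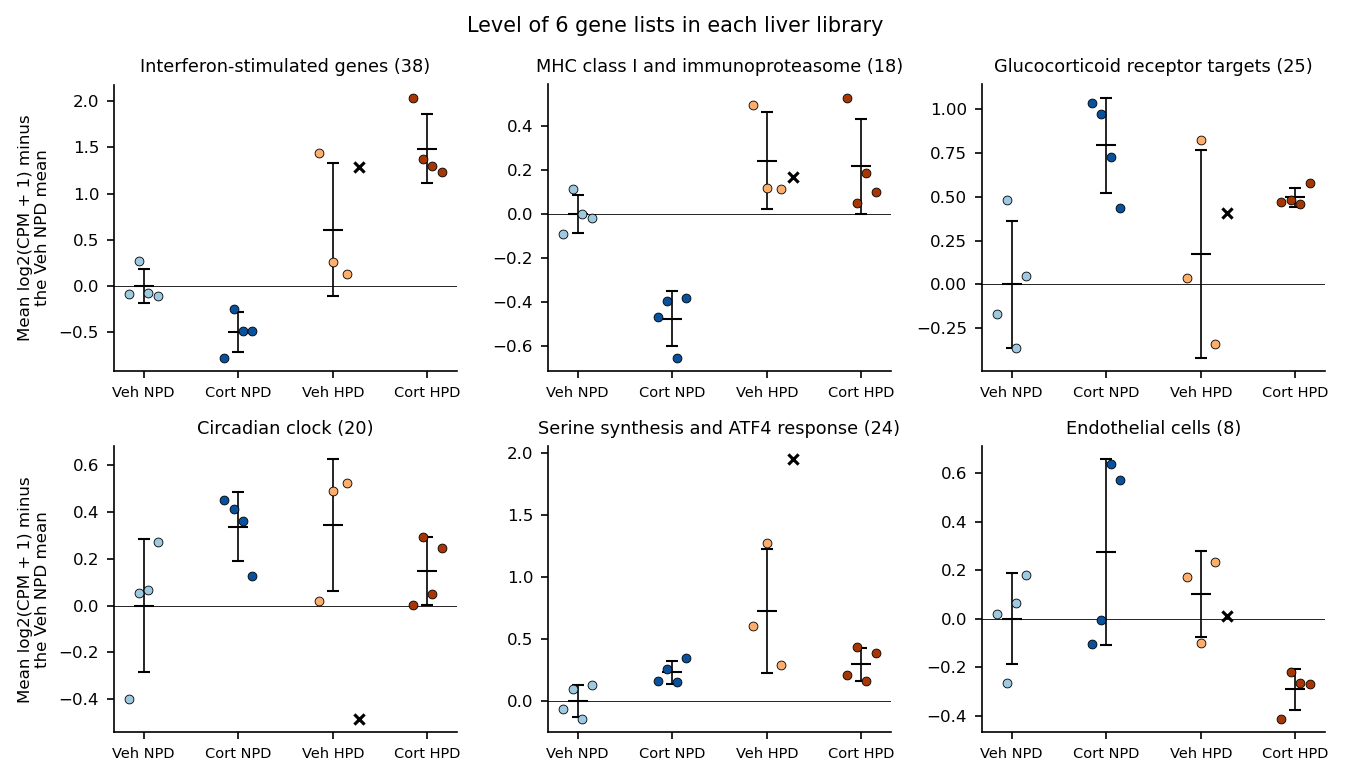
The mean level of 6 gene lists in each liver library, as log2(CPM + 1) relative to the mean of the Veh NPD livers, is shown by group, with a cross for the left-out Veh HPD library. Interferon-stimulated genes ran from -0.778 in a Cort NPD liver to 2.039 in a Cort HPD liver, and Veh HPD replicate 1 (1.442) reached the Cort HPD range.

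Markers of some other cell types moved with the interaction. All 8 endothelial markers had a negative interaction, with a median of -0.85, and their summed level was 130.5 to 146.9 CPM in Cort HPD livers against 159.8 to 271.1 CPM in the other groups. Of 9 stellate cell and fibroblast markers, 7 were negative (median -0.94). Of 10 Kupffer cell and macrophage markers, 9 were positive (median 0.72), with sums of 327 to 484 CPM in veh livers, 140.7 to 240.3 CPM in Cort NPD and 183 to 363.3 CPM in Cort HPD. Red blood cell markers summed to 5441 to 7793 CPM in Cort HPD livers and to 1386 to 3627 CPM elsewhere. These sums came mostly from globin genes, as Alas2 held at most 89 CPM and Slc4a1 at most 2.74 CPM. Of the 6 markers, 5 had a positive and 1 a negative interaction (median 1.13). In cort-treated livers 3 of the 6 were called higher and 1 lower on the HPD, against 3.08% and 2.8% of all genes tested. Hepatocyte markers, mostly Alb, summed to 151300 to 268000 CPM in Cort HPD livers and to 75830 to 129800 CPM elsewhere. Of these 8 markers, 6 had a positive and 2 a negative interaction (median 0.59). Of 6 tested T and NK cell markers, 5 were positive (median 0.52), and the marker sums were 6.95 to 9.297 CPM in Veh NPD, 5.118 to 7.671 CPM in Veh HPD, 0.7947 to 3.147 CPM in Cort NPD and 2.16 to 5.864 CPM in Cort HPD. The defining marker Cd3e was at 0 in 8 of the 15 libraries and at most 0.628 CPM. Skeletal muscle markers summed to 502.4 CPM in Cort NPD replicate 3 and exocrine pancreas markers to 181 CPM in Veh HPD replicate 1. B and plasma cell (3 of 3 negative), neutrophil, cholangiocyte and adipocyte markers had 3 to 5 members tested and 0 called. The part of these differences in the called genes and lists was not tested.

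The interaction also moved with transcript length. From the shortest to the longest of 4 equal classes of genes, its median was 0.15, 0.06, -0.04 and -0.18. Of the 7 negative genes, 5 (Igf2r, Ppm1l, Gne, Chst15 and Lpp) were in the longest class, and of the 7 positive genes only Tnfsf10 was. The difference between long and short genes was lowest in Cort HPD replicate 1 (-0.233) and highest in Cort NPD replicates 3 (0.292) and 4 (0.28), on a log2 scale relative to the Veh NPD livers. Its part in the calls was not tested.

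The same interaction in eWAT was compared with that of liver in a fit of both tissues. Of 16482 genes, 0 differed between tissues at an adjusted p under 0.05 in edgeR, 1514 did at an unadjusted p under 0.05, and 1 did by limma voom with sample quality weights. The same fit, which shares 1 estimate of the spread between both tissues, called 63 interactions in liver, of which 5 were positive, and so did not show the even split of the 14, and it called 0 in eWAT (1038 at an unadjusted p under 0.05). Hsd17b6, Ugt2b35 and Slc22a30 were at 0 counts in every eWAT library, so no comparison was possible for them. Grn was measured well in both tissues, at a mean of 212 CPM in Veh NPD fat and 280 CPM in Cort NPD fat, and 205 and 259 CPM on the HPD. Its interaction in eWAT was -0.04 and the difference from liver -1.18, which did not pass the test (adjusted p = 0.136). Timp2, Igf2r, Lpp and Chst15 gave differences of -1.15, -1.35, -1.30 and -1.33, with adjusted p of 0.219 to 0.248. Gne, Apol9b and Oas1c gave -1.07, 1.81 and 4.99 (adjusted p = 0.315, 0.412 and 0.25). Ppm1l gave -0.63 (adjusted p = 0.653), with an interaction of -0.50 in eWAT. Tnfsf10 had similar interactions in this fit, 1.93 in liver and 1.61 in eWAT (adjusted p = 0.124 and 0.463), a difference of 0.32. Defb1 was near 0 in fat, with a mean of 0.695 CPM in Cort HPD. None of the called liver genes was thus shown to respond differently in liver than in fat.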

How the data were processed

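Liver RNA was measured by QuantSeq, which sequences the 3′ ends of transcripts, so a value counts transcripts and is not scaled by length. The deposited values are raw read counts for Ensembl genes (47643 gene IDs) in each of 32 libraries. The submitters' processing notes name the builds GRCm38 and mm10, R 4.0.3 and limma. The aligner and the counting program are not given in the sources used here. The versions run were edgeR 4.0.16 and limma 3.58.1 under R 4.3.3. Symbols and positions came from GENCODE M21, which held 47224 of the gene IDs.

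The 15 liver libraries were fitted by group without covariates. Genes passed filterByExpr (minimum count 10, minimum total count 15), scaled with TMM factors and tested with edgeR's robust quasi-likelihood test, and a Benjamini-Hochberg adjusted p under 0.05 over all genes tested was called. The script was tested on simulated data. Library totals of 8933307 to 17447524 counts set the precision, which was lowest for genes of a few counts per library, and intervals and standard errors cover the spread between these libraries. Values printed by library are CPM with TMM factors. Replicates differed by a chi-square of 11.1 to 142 per gene over 24 pairs, and none were identical.

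Named genes were all called genes, up to 2 of each list with the smallest interaction p, and Nr3c1, Fgf21, Gcgr, Pck1, G6pc, Tat, Fkbp5, Per1 and Tsc22d3. The lists of 34 pathways and 12 cell types were written by hand, and the members, lists and comparisons were chosen with earlier results of these data known. Promoters came from RefSeq, and the interferon motif, the window of Tnfsf10 and the neighbours of the threshold in the text were chosen after the values were seen. The size of the cort response and the tissue difference used edgeR fits of the same kind, the latter over 16482 genes and both tissues. Alternatives were all 16 liver libraries, RLE factors, no filter, DESeq2 1.42.0, limma voom without and with sample quality weights (statmod 1.5.0), the replicate number as a block, each library left out in turn and, added after seeing the data, library totals without TMM factors. The result for 1 of the named genes is not reported here.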

Additional observations from a re-analysis of the deposited data

Results flagged for a closer look

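The test of the difference itself set apart the cort responses of 14 genes between the diets, by log2 interactions of 4.09 for Hsd17b6, 1.58 for Ugt2b35, 1.71 for Defb1, 1.65 for Apol9b, 1.13 for Slc22a30, 3.15 for Oas1c and 1.99 for Tnfsf10. The negative ones were -1.68 for Chst15, -1.16 for Grn, -1.42 for Lpp, -1.10 for Igf2r, -1.24 for Timp2, -1.03 for Gne and -1.06 for Ppm1l.

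Single libraries stood far from the 3 others of their group in 14 of 96 groups looked at, where chance gives about 1 in 20. Of the called genes, Hsd17b6 was at 17.8 CPM in Cort NPD replicate 2 (9.16 to 10.3 in the others), Chst15 at 4.19 CPM in Veh NPD replicate 1 (7.27 to 7.75) and Igf2r at 20.7 CPM in Cort HPD replicate 3 (18.8 to 19.1). Tnfsf10 was at 3.29 CPM in Veh NPD replicate 3 (2.54 to 2.61) and at 11.4 CPM in Cort HPD replicate 1 (6.8 to 7.2), and Ppm1l at 12.9 CPM in Cort HPD replicate 2 (10.8 to 11). The 10 most counted genes took 35% of Veh NPD replicate 4 (28.6 to 28.8 in the others) and 42.2% of Cort HPD replicate 1 (32.8 to 34).

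Cort HPD replicate 1 also had the highest summed markers of its group for Kupffer cells (363.3 CPM, 183 to 209.7 in the others), neutrophils (28.97 CPM, 7.194 to 10.44) and skeletal muscle (5.9 CPM, 0 to 0.997). Cort NPD replicate 3 held 502.4 CPM of skeletal muscle markers (0.2501 to 5.298 in the others) and Cort NPD replicate 4 552.8 CPM of stellate cell markers (419.6 to 438.7). The level of interferon-stimulated genes was 0.275 in Veh NPD replicate 2 and -0.103 to -0.081 in the others. The left-out Veh HPD library had 771.3 CPM of cell cycle genes, against 85.54 to 126.6 CPM in the other 15 liver libraries.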

How the results depend on the processing

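The sign of the interaction of all 14 called genes held under every setting run, but the number of calls did not. The settings reused the libraries that chose these genes, so the sign could hardly change. The 14 calls (7 positive, 7 negative) became 1 (1 and 0) with all 16 libraries, 9 (3 negative) with RLE factors, 72 (25 and 47) with no filter, 125 (46 and 79) with DESeq2, 7 (2 negative) with limma voom and 23 (18 negative) with library totals, and 2 to 39 when 1 library was left out (2 to 30 positive, 0 to 11 negative). The 39 came without Veh HPD replicate 1 and the 2 without Veh NPD replicates 1 or 4, Veh HPD replicate 3 or Cort NPD replicate 3. Of the 14, DESeq2 called 14, no filter 13, library totals 12, voom with quality weights 11 of its 15, and voom 7. Labels share replicate numbers, but same-numbered livers did not deviate together across all groups (r from -0.161 to 0.24, over 0.1 in 6 of 21 pairs). Pairs of unlike number had r from -0.318 to 0.202, over 0.1 in 11 of 63. The 3 same-numbered pairs of Veh NPD and Veh HPD were all positive, with r of 0.118 to 0.18, but overlapped the 9 others, at -0.245 to 0.174. Under the block the diet calls in veh livers were 27 in place of 21. The replicate block gave 10 calls, 9 of them among the 14, with 4 negative. Cort calls on the NPD were 1565, 998 with all 16 libraries and 1078 to 1963 without 1 library, and on the HPD 1226, 1114 with all 16 libraries and 714 (without Veh HPD replicate 1) to 1222 without 1 library. Library totals gave 1392 and 1547, DESeq2 1889 and 1534, and voom with quality weights 2014 and 1463. Diet calls under veh were 21, and 7 with all 16 libraries, 56 with no filter, 111 with DESeq2, 46 with voom and quality weights and 5 to 40 without 1 library. Under cort they were 729, and 371 with all 16 libraries and 356 (without Cort NPD replicate 3) to 757 without 1 library. For the same comparison DESeq2 gave 1075, voom with quality weights 1035 and library totals 951. The size ratio of 0.984 ran from 0.903 to 1.08 without 1 library and was 1.14 with library totals. The tissue difference of 0 calls became 1 (Pdlim3, a muscle gene, -8.23, adjusted p = 0.0176) by voom with quality weights. Small interactions changed sign: with all 16 libraries Tsc22d3 to 0.0175 and Gcgr to 0.11, without Veh HPD replicate 2 Pck1 to 0.10 (lowest without any 1 library -0.43) and Tsc22d3 to 0.10 (lowest -0.53), and with library totals the interaction of Nr3c1 became -0.0301, a scaling that moved the median of all genes to -0.22. The cause of these shifts was not tested. Depth limits rare genes such as Oas1c.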

Other observations

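Some lists not described above also lay to 1 side. Cytosolic ribosomal proteins and respiratory chain genes each had 25 of 30 positive interactions, with medians of 0.18 and 0.18, and 0 were called. Cort lowered 9 of the 30 ribosomal genes on the NPD and 3 on the HPD, against 5.79% and 5.14% of all genes tested. Rps27 fell on the NPD by 0.87 (adjusted p = 0.00579) and had a log2 fold change of -0.16 on the HPD (adjusted p = 0.693). With library totals in place of TMM factors these medians were -0.05 and -0.04, so their sign depended on the scaling. Cytochrome P450 and drug metabolism genes, of which cort raised 22 of 53 on the NPD and 23 of 53 on the HPD (6.84% and 4.75% of all genes tested), had a median interaction of -0.04, which changed sign under 8 settings.

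Antioxidant and NRF2 target genes stood at 0.658 to 0.881 above the Veh NPD mean in Cort HPD livers, 0.1 to 0.544 in Cort NPD livers and 0.214 to 0.371 in Veh HPD livers, and their median interaction was 0.17, which turned to -0.19 with all 16 libraries and to -0.04 with library totals. Bpgm, an enzyme of red blood cells that makes bisphosphoglycerate, was at 23.4, 15.5, 25.2 and 23.1 CPM in Cort HPD livers and at 9.32 to 14.9 CPM in all other livers. It rose on the HPD (0.99, adjusted p = 0.00126) and had an interaction of 1.17 (adjusted p = 0.0641). The summed red blood cell markers, mostly globin genes, were highest in the same livers, and their part in the level of Bpgm was not tested.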
